A study of Mus musculus with 6 samples.

Results

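Glycolysis and the pentose phosphate pathway were followed through 38 genes, from the glucose transporters to lactate export, pyruvate entry into mitochondria and the pentose branch. The members were chosen by name, as a list of enzymes and transporters, and each of the 38 names was found as 1 of the 49585 gene entries of the deposited expression table. The study asked which genes of bone marrow monocytes depend on *Syk*, which encodes spleen tyrosine kinase, a relay of immune receptor signals, in the setting of atherosclerosis. RNA was sequenced from bone marrow monocytes, taken with a commercial monocyte isolation kit, of 3 Sykdel/del Rosa26CreER(T2)+/+ libraries and 3 Syk+/+ Rosa26CreER(T2)+/+ libraries, all from mice on a high-fat diet, for 8 weeks by the series description. Both genotypes carried the Cre, which is expressed from the Rosa26 locus in all cell types, so the deletion was not limited to monocytes. The methods describe deletion by tamoxifen given by mouth. In the methods tamoxifen was given at 7 to 8 weeks of age and the diet began at the age of 8 weeks. Whether the Syk+/+ mice also had tamoxifen is not stated. A legend counts the mice of each genotype, n = 3, whereas the labels only call the libraries replicates. If the libraries of a genotype were not from separate mice, the p-values would reflect no more than how these samples scatter, possibly for technical reasons.

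Glycolysis splits glucose into pyruvate in the cytosol, yielding ATP and NADH, and most of its steps can be carried out by several isoenzymes encoded by separate genes. Pyruvate is then either reduced to lactate and exported, or oxidized by pyruvate dehydrogenase in mitochondria. The pentose phosphate pathway branches off after the first step and supplies NADPH, which phagocytes use for the oxidative burst, and ribose for nucleotides. Monocytes and macrophages are known to raise glycolysis upon activation.

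All values below are normalized counts, that is reads assigned to a gene multiplied by 1 factor per library, which are not divided by gene length. The reads assigned to genes numbered 4168626 to 6254375 in the Sykdel/del libraries and 6805111 to 7071823 in the Syk+/+ libraries, so 1 read was worth up to 1.56 normalized counts in Sykdel/del and up to 0.960 in Syk+/+. The genotypes thus also differed in depth. Several genes of monocytes were abundant in every library. *Lyz2* (lysozyme) was at 59113 to 71325 in Sykdel/del and 53258 to 60696 in Syk+/+. *Csf1r*, the receptor of the growth factor M-CSF, was at 6367 to 6998 in Sykdel/del and 7093 to 9019 in Syk+/+, lower in Sykdel/del without overlap. *Cd14*, another monocyte gene, was far less abundant, at 76.5 to 212.8 in Sykdel/del and 92.3 to 133.5 in Syk+/+. Genes of cycling cells were abundant too, with *Mki67* at 18626 to 25367 in Sykdel/del and 20113 to 22220 in Syk+/+. *Mpo*, a gene of granulocyte precursors, was at 554.0 to 856.8 in Sykdel/del and 664.4 to 771.5 in Syk+/+. The *Syk* entry itself had 4794, 5094 and 4712 normalized counts in Sykdel/del libraries, against 4463, 5527 and 5427 in Syk+/+ libraries. The genotypes overlapped. Counts over the whole gene do not separate its exons, so the deletion could not be checked in these libraries.

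Among the 37 members tested a single one passed the adjusted threshold, and it encodes an enolase. *Eno3*, which encodes the beta subunit of enolase known chiefly from muscle, fell to 34% of its Syk+/+ mean, while *Eno1*, the ubiquitous alpha enolase of the same step, kept 104% of its Syk+/+ mean and did not pass the test. Testing covered the 37 members that reached 1 normalized count in 3 or more libraries. By limma 1 of them was lower and 0 were higher at an adjusted p under 0.05, and 36 did not pass. By limma-voom on the recovered reads the counts were again 1 lower and 0 higher. Among all 14023 genes tested 52 passed, a share of 0.371%, of which 49 were lower (0.349%) and 3 higher (0.0214%). This split depended on the fit, with 34 lower and 0 higher by limma-voom, 2 lower and 4 higher by limma without a trend of the variance on the mean, and 0 in either direction with reads thinned to the shallowest library. An unadjusted p under 0.05 was reached by *Eno3* on the lower side and *Pgk1* on the higher side, 2 members, and by 5.26% of all genes (3.32% lower and 1.94% higher). The number of genes that passed over the whole set varied with single libraries, from 92 without Sykdel/del replicate 1 and 18 without Sykdel/del replicate 2 to 10, 4 and 34 without Syk+/+ replicates 1, 2 and 3, and *Eno3* was the 1 member that passed in each of these. The remaining member, *Fbp1*, had too few reads to be tested.

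The median log2 fold change of the 37 tested members, Sykdel/del minus Syk+/+, was 0.03, against 0.00 over all genes tested. Of the 37, 24 had a value above 0 (64.9%), against 50.3% of all genes. The 36 members that did not pass ranged from -0.32 to 0.31. The depth was enough to bound most of them. Of the 28 members averaging 100 normalized counts or more, 27 did not pass, their fold changes lay between -0.15 and 0.30, and their 95% intervals lay within -0.45 to 0.61. The interval stayed within 0.5 on either side of 0 for 24 of these 27. Together the 38 genes took 0.632, 0.635 and 0.631% of all normalized counts in Sykdel/del libraries and 0.636, 0.606 and 0.617% in Syk+/+ libraries. The genotypes overlapped in this share.

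**Figure D1:**
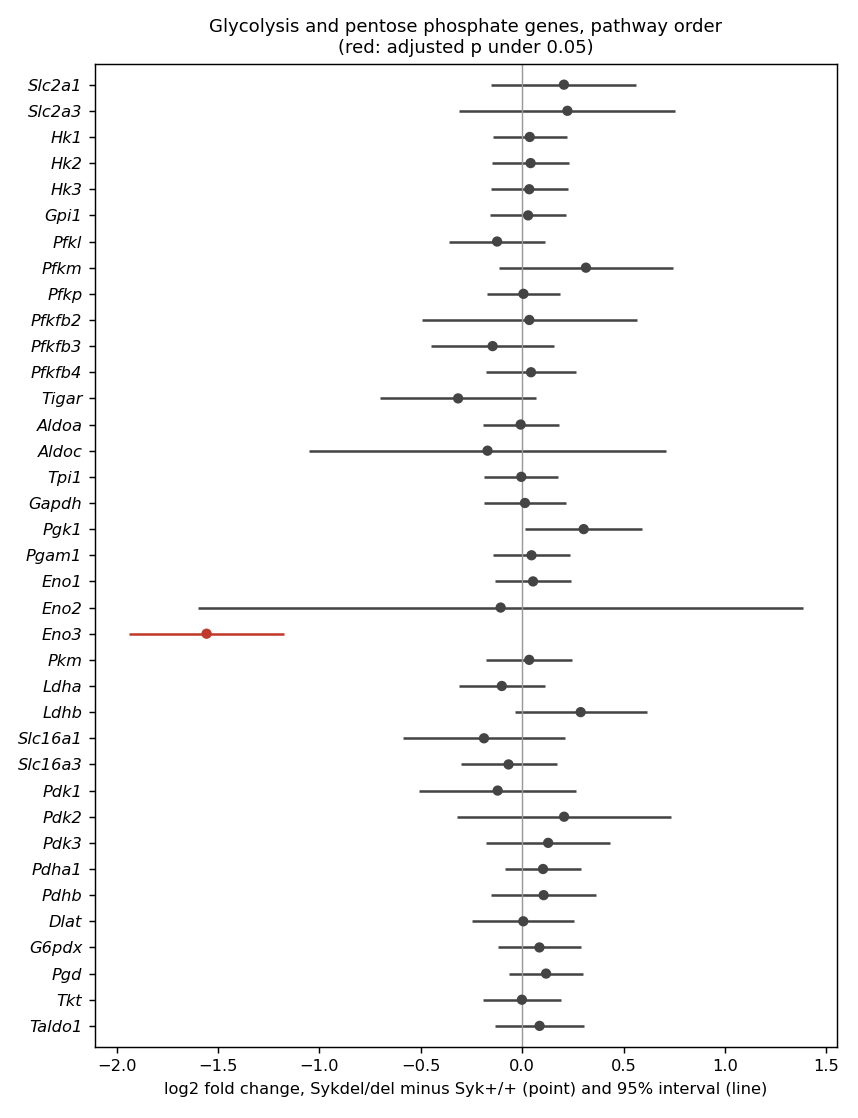
Log2 fold change, Sykdel/del minus Syk+/+, of the 37 tested members in pathway order (point, 3 libraries per genotype) with its 95% interval (line) from limma. *Eno3*, in red, lies at -1.56 and is the only member past the adjusted threshold, while the others lie between -0.32 and 0.31.

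Enolase, which makes phosphoenolpyruvate in the penultimate step of glycolysis, is a dimer of subunits encoded by *Eno1* (alpha), *Eno2* (gamma, typical of neurons) and *Eno3* (beta). The coding sequences of the 3 genes are of equal length, 1302 bp, and alignment without gaps gave 76.7% identity between *Eno3* and *Eno1*, 76.7% between *Eno3* and *Eno2* and 75.1% between *Eno2* and *Eno1*. The longest stretch without a difference between *Eno3* and *Eno1* was 20 bp. The first 60 coding bases of each (GENCODE M21 annotation of GRCm38) are shown because they make visible how densely the paralogs differ, so that a read of *Eno3* can be told from one of *Eno1*. Capitals mark the bases that differ from *Eno1* and, in *Eno1* itself, those that differ from *Eno3*, which number 20 in *Eno3* and 13 in *Eno2*.
Eno3: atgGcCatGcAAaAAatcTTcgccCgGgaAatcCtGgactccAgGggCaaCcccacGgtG
Eno1: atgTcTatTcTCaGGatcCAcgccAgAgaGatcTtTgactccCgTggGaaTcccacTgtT
Eno2: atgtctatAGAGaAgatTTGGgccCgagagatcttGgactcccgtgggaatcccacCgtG

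*Eno3* (ENSMUSG00000060600, plus strand of GRCm38 chr11:70657202-70662513) shared none of its exonic stretches of 50 bases with another annotated gene, and no exon of another gene overlapped it. *Eno1*, in contrast, shared 72.2% of its 50-base stretches with 9 other gene models, foremost the copy *Eno1b*, whose own entry was at 0 in every library. How reads that fit several genes were treated is not stated, so the level of *Eno1* is less certain than that of *Eno3*.

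*Eno3* had 104.2, 102.2 and 156.1 normalized counts in the Sykdel/del libraries, against 333.8, 434.0 and 297.1 in the Syk+/+ libraries. Every Sykdel/del library was below every Syk+/+ library, with the highest Sykdel/del value far from the lowest Syk+/+ value. The mean was 121 ± 30.6 in Sykdel/del and 355 ± 70.9 in Syk+/+ (SD, n = 3 each), the log2 fold change was -1.56 (standard error 0.18), and the adjusted p was 0.0073 by limma. *Eno3* had the smallest p of all genes tested (8.1e-07) and ranked 26 by size among the 49 genes that were lower. The call was lost, with an adjusted p of 0.25 in each case, when limma was run without a trend of the variance on the mean and when reads were thinned to the shallowest library, with log2 fold changes of -1.56 and -1.40.

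*Eno1* had 2996, 2687 and 2683 normalized counts in Sykdel/del libraries and 2755, 2726 and 2574 in Syk+/+ libraries. The genotypes overlapped, and the log2 fold change was 0.05 (standard error 0.09, 95% interval -0.14 to 0.24). *Eno2* was near the detection limit, with 1.1, 2.1 and 0 normalized counts in Sykdel/del libraries and 1.9, 0 and 1.8 in Syk+/+ libraries, that is no more than 2 reads in any library. Its interval, -1.60 to 1.39, leaves its direction undetermined at this depth.

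The genotypes differed more in the composition of the enolase transcripts than in their sum. With counts divided by the length of the principal transcript, *Eno3* made up 4.31, 4.69 and 7.01% of enolase transcripts in Sykdel/del libraries, against 13.57, 17.10 and 13.01% in Syk+/+ libraries. The mean share was 5.34 ± 1.46% in Sykdel/del and 14.6 ± 2.22% in Syk+/+ (SD, n = 3 each), and with the union of all exons as length it was 11.8% in Sykdel/del and 28.8% in Syk+/+. The 3 enolase genes together came to 1453 ± 80.9 normalized counts per kilobase in Sykdel/del and 1552 ± 83.1 in Syk+/+, and here the genotypes overlapped. Hence the beta share was lower by either length, while its size depended on the length used. The size also rests on the level of *Eno1*, which is less certain because of the stretches it shares with other gene models.

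**Figure D2:**
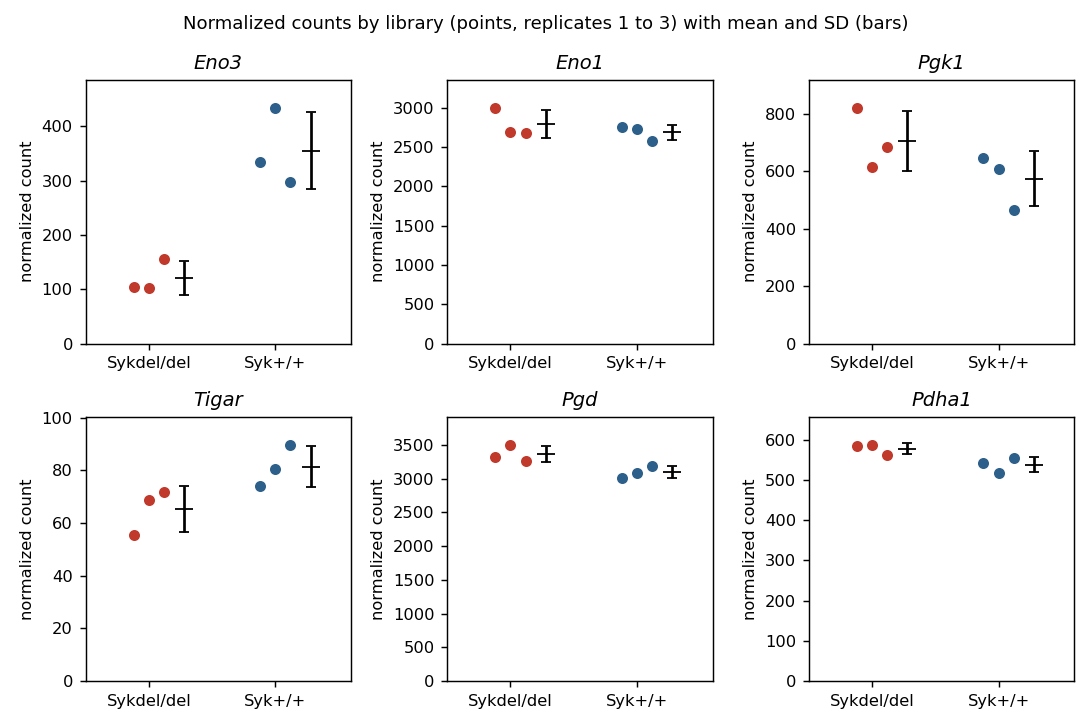
Normalized counts (vertical axes from 0) in the 3 Sykdel/del (red) and 3 Syk+/+ (blue) libraries of 6 members, with mean and SD as bars. *Eno3* lies at 102.2 to 156.1 in Sykdel/del and at 297.1 to 434.0 in Syk+/+, the widest gap of the panels relative to level. *Tigar*, *Pgd* and *Pdha1* do not overlap between genotypes either, but their values lie close together.

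The 250 bases before and 50 after the start of *Eno3* and of *Eno1* (RefSeq, GRCm38.p6, plus strand) are shown because these genes of the same step differed in outcome. Capitals mark ACGTG or GCGTG on either strand, the core letters of the element bound by hypoxia-inducible factors, which are known to activate many glycolysis genes. The *Eno3* window (chr11:70656926-70657225) holds 1 match, and the first of 3 windows of *Eno1* (chr4:150236458-150236757) holds 2.
Eno3: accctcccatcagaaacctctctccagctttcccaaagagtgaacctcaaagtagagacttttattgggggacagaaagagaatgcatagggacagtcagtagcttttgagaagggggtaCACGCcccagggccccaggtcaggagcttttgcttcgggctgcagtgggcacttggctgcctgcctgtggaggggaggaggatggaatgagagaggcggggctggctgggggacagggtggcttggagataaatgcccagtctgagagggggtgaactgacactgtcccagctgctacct
Eno1: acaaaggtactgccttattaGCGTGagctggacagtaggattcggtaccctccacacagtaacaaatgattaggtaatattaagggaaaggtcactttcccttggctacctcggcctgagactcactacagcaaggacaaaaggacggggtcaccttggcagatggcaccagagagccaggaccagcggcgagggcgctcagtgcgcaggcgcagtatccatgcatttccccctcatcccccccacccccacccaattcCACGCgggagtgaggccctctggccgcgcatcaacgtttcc

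Of the 38 members 37 were matched to such windows by symbol, and 31 of them (83.8%) held ACGTG or GCGTG in at least 1 window, against 12628 of 27025 genes (46.7%). Members had more windows, 54 for 37 genes against 32851 for 27025 genes, and counted per window the share was 75.9% for members and 43.8% for all genes. The members' windows were also richer in G and C, with a median of 60.8% against 52.7% for all genes. A match is a description of the letters, not a binding site.

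Glucose enters through the transporters encoded by *Slc2a1* and *Slc2a3*. *Slc2a1* had 125.3, 120.0 and 90.5 normalized counts in Sykdel/del libraries and 87.9, 104.7 and 96.0 in Syk+/+ libraries, overlapping between genotypes, with a log2 fold change of 0.21 (standard error 0.17). *Slc2a3* was lower in both, at 33.4 to 57.7 in Sykdel/del and 34.6 to 44.9 in Syk+/+. Summed per kilobase of the principal transcript, the 2 transporters came to 50.2, 45.2 and 42.3 in Sykdel/del libraries and 38.3, 40.9 and 38.5 in Syk+/+ libraries. These sums did not overlap. With the union of all exons as length they did, as Sykdel/del replicate 3 then fell below Syk+/+ replicate 2. Neither gene passed the test.

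Hexokinases trap glucose by phosphorylation, and *Hk3* is the form typical of myeloid cells. *Hk2* had the most reads, with 2215, 2001 and 1927 normalized counts in Sykdel/del libraries and 1959, 1943 and 2059 in Syk+/+ libraries, and its genotypes overlapped. Per kilobase of transcript *Hk3* was ahead. It made up 42.3 ± 0.84% of hexokinase transcripts in Sykdel/del and 42.4 ± 1.64% in Syk+/+, *Hk2* 36.6 ± 1.34% in Sykdel/del and 36.5 ± 1.07% in Syk+/+, and *Hk1* 21.1 ± 0.61% in Sykdel/del and 21.1 ± 1.04% in Syk+/+ (SD, n = 3 each). The log2 fold changes of the 3 genes were 0.03 to 0.04, with intervals within -0.16 to 0.23. *Gpi1*, the isomerase of the next step, was at 3184 to 3577 in Sykdel/del and 3259 to 3410 in Syk+/+.

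Phosphofructokinase commits the sugar to glycolysis and consists of liver (*Pfkl*), muscle (*Pfkm*) and platelet (*Pfkp*) subunits. *Pfkp* led with 1016, 1040 and 1005 normalized counts in Sykdel/del libraries and 988, 1085 and 979 in Syk+/+ libraries, a log2 fold change of 0.01 (95% interval -0.18 to 0.19). *Pfkl* was at 308.8 to 394.6 in Sykdel/del and 378.3 to 405.8 in Syk+/+. *Pfkm* had 57.6, 50.1 and 60.9 normalized counts in Sykdel/del libraries against 43.0, 41.3 and 50.8 in Syk+/+ libraries, with a log2 fold change of 0.31 (standard error 0.20) that did not pass.

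The bifunctional enzymes of the *Pfkfb* family make and break the sugar bisphosphate that activates phosphofructokinase. *Pfkfb4* was the most abundant, at 544.2, 598.8 and 674.2 in Sykdel/del libraries and 538.6, 599.2 and 621.9 in Syk+/+ libraries, *Pfkfb3* was at 274.9 to 364.1 in Sykdel/del and 304.9 to 421.5 in Syk+/+, and *Pfkfb2* at 29.7 to 38.6 in Sykdel/del and 27.8 to 41.5 in Syk+/+. *Tigar*, a p53 target whose product lowers this activator, had 55.4, 68.9 and 71.8 normalized counts in Sykdel/del libraries against 73.9, 80.7 and 89.5 in Syk+/+ libraries. Its genotypes lay close together without overlapping, and with a log2 fold change of -0.32 (standard error 0.18, unadjusted p = 0.099 by limma) it did not pass. *Fbp1*, the enzyme of the reverse step in gluconeogenesis, had 2 reads in Sykdel/del replicate 1 and none in the other 5 libraries, where 3 reads, the limit that a count of 0 allows, would be 2.77 to 4.68 normalized counts.

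The central enzymes of the pathway were level between genotypes. *Aldoa*, the main aldolase, had 2825, 3167 and 3113 normalized counts in Sykdel/del libraries and 3092, 2981 and 3070 in Syk+/+ libraries, a log2 fold change of -0.01 (95% interval -0.20 to 0.18), whereas *Aldoc*, the brain form, was at 5.5 to 12.5 in Sykdel/del and 7.7 to 10.3 in Syk+/+. *Tpi1*, which interconverts the triose phosphates, was at 733.8 to 769.4 in Sykdel/del and 722.5 to 791.1 in Syk+/+, and *Gapdh*, which makes the first NADH of the pathway, at 593.6 to 682.0 in Sykdel/del and 589.6 to 657.9 in Syk+/+. *Gapdh* shared 82.5% of its 50-base stretches with 218 other gene models, so its level is uncertain. In all, 21 of the 38 members shared no such stretch and 12 shared more than 10% of theirs.

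*Pgk1*, which makes the first ATP of the payoff phase, was the only member besides *Eno3* with an unadjusted p under 0.05. It had 820.2, 614.5 and 685.1 normalized counts in Sykdel/del libraries and 647.1, 608.8 and 466.0 in Syk+/+ libraries. The genotypes overlapped, since Sykdel/del replicate 2 lay below Syk+/+ replicate 1. The log2 fold change was 0.30 (standard error 0.13, unadjusted p = 0.041, adjusted p = 0.90 by limma). It shared 68.0% of its 50-base stretches with copies such as *Pgk1-rs7*. *Pgam1*, the mutase after it, was at 958.8 to 1061 in Sykdel/del and 954.4 to 1055 in Syk+/+.

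*Pkm*, pyruvate kinase, was the most abundant member per kilobase. By the length of the principal transcript it was followed by *Aldoa*, *Taldo1*, *Pgd* and *Eno1*, and by the union of exons, with *Pkm* at 1495 normalized counts per kilobase, by *Taldo1* (1106), *Aldoa* (1045), *Gpi1* (519) and *Tkt* (517), so the order after *Pkm* depended on the length used. It had 7878, 7547 and 7266 normalized counts in Sykdel/del libraries and 7866, 7012 and 7288 in Syk+/+ libraries, overlapping, with a log2 fold change of 0.03 (95% interval -0.18 to 0.25). Exon choice between its isoforms cannot be seen in counts per gene. The order of members is also uncertain because they differed in the 50-base stretches shared with other gene models. The shared part was 34.4% in *Pkm* and 72.2% in *Eno1*, against 0% in *Pgd* and *Tkt*.

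Lactate dehydrogenase interconverts pyruvate and lactate as tetramers of A (*Ldha*) and B (*Ldhb*) subunits. *Ldha* had 1062, 955 and 1016 normalized counts in Sykdel/del libraries and 1236, 1012 and 1015 in Syk+/+ libraries, while *Ldhb* had 130.8, 134.6 and 159.2 in Sykdel/del libraries against 134.7, 102.7 and 110.7 in Syk+/+ libraries. Each gene overlapped between genotypes. Within each library, however, *Ldhb* made up 14.30, 16.03 and 17.51% of the transcripts of the pair per kilobase in Sykdel/del, against 12.86, 12.08 and 12.87% in Syk+/+, without overlap. The lactate transporters were at like levels, with *Slc16a3* at 512.1, 627.0 and 628.9 in Sykdel/del libraries and 552.7, 672.1 and 625.6 in Syk+/+ libraries, and *Slc16a1* at 59.3 to 67.8 in Sykdel/del and 60.5 to 83.2 in Syk+/+.

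**Figure D3:**
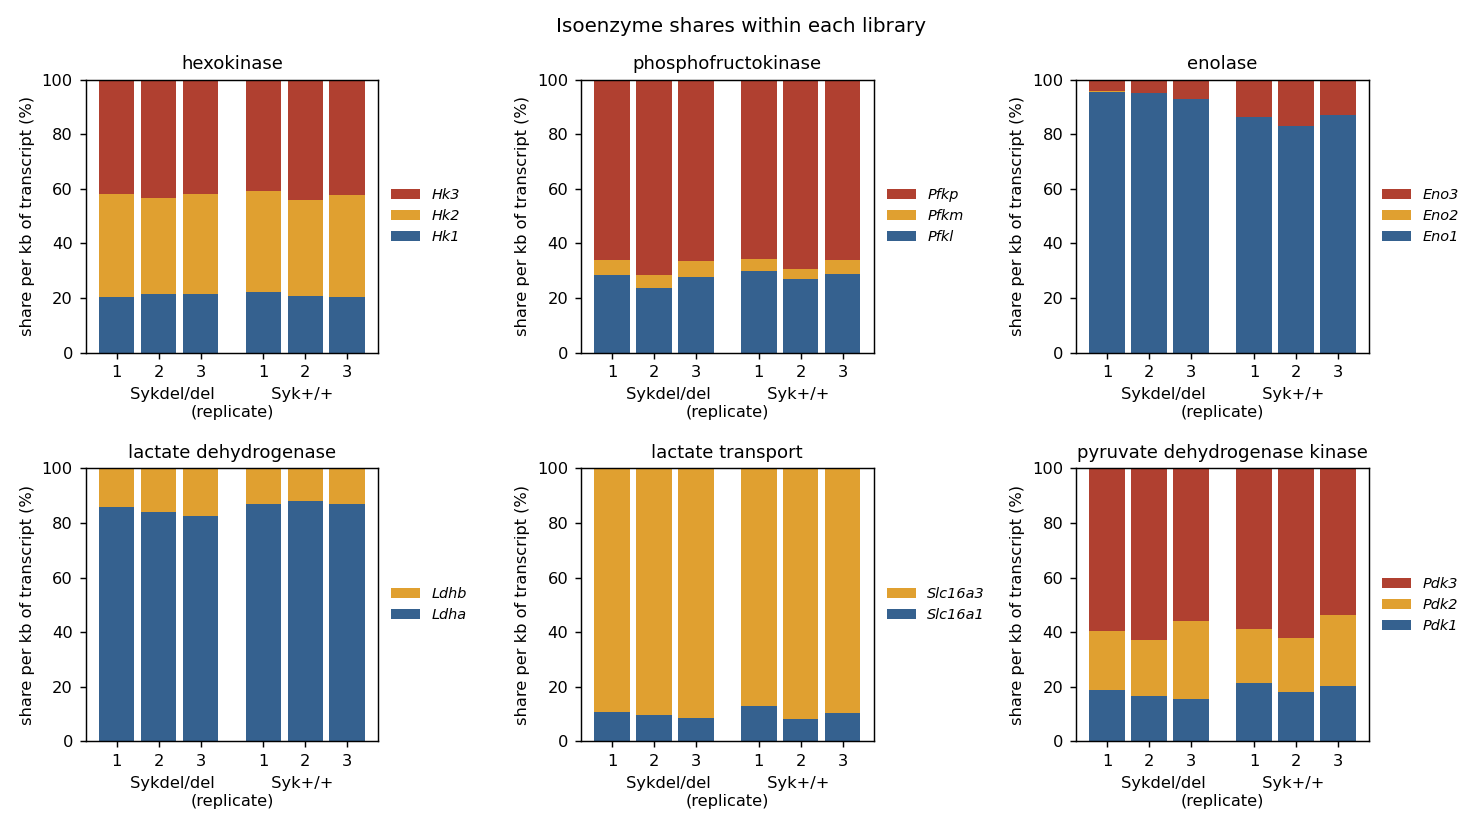
Share of each isoenzyme in the transcripts of its family per kilobase of transcript (%), in Sykdel/del replicates 1 to 3 (left bars) and Syk+/+ replicates 1 to 3 (right bars). The *Eno3* share is 4.31 to 7.01% in Sykdel/del and 13.01 to 17.10% in Syk+/+, whereas the hexokinase bars are alike. The size of the *Eno3* share depends on the length used and on the less certain level of *Eno1*.

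As log2 ratios within a library, 14 pairs of isoenzymes were compared, which does not depend on the scaling of the library. The ratio of *Eno3* to *Eno1* averaged -4.54 ± 0.39 in Sykdel/del and -2.93 ± 0.25 in Syk+/+, a difference of -1.61. The ratio of *Pfkm* to *Pfkl* differed by 0.44 (0.24 with reads thinned to 1 depth) and that of *Ldhb* to *Ldha* by 0.39. These 3 pairs did not overlap between genotypes and had p = 0.10 in a two-sided exact permutation test, the smallest that 3 against 3 libraries allow (adjusted p = 0.47 over the 14 pairs), so no pair could pass. The other 11 differed by -0.25 to 0.19 and overlapped.

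Pyruvate dehydrogenase feeds pyruvate into the citric acid cycle and is switched off by its kinases. Its E1 alpha subunit gene *Pdha1* had 585.3, 586.3 and 561.8 normalized counts in Sykdel/del libraries against 541.4, 517.5 and 555.5 in Syk+/+ libraries, which did not overlap. The difference was small, with a log2 fold change of 0.10 (standard error 0.09), and did not pass. The E1 beta gene *Pdhb*, at 268.1 to 277.8 in Sykdel/del and 232.4 to 300.2 in Syk+/+, and the E2 gene *Dlat*, at 255.6 to 300.4 in Sykdel/del and 250.1 to 309.5 in Syk+/+, overlapped. Of the kinases *Pdk3* was the most abundant, at 129.7, 130.4 and 140.5 in Sykdel/del libraries and 141.2, 114.3 and 112.6 in Syk+/+ libraries. *Pdk1* was at 84.5 to 100.9 in Sykdel/del and 81.6 to 126.2 in Syk+/+, and *Pdk2* at 44.9 to 76.5 in Sykdel/del and 38.4 to 58.1 in Syk+/+.

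The pentose phosphate enzymes were abundant. *G6pdx*, which encodes the enzyme of the first and controlling NADPH-forming step, had 1647, 1370 and 1358 normalized counts in Sykdel/del libraries and 1390, 1374 and 1344 in Syk+/+ libraries. *Pgd*, the second NADPH-forming enzyme, had 3321, 3496 and 3268 in Sykdel/del libraries against 3019, 3080 and 3195 in Syk+/+ libraries, without overlap, with a log2 fold change of 0.12 (standard error 0.08) that did not pass. In sum the oxidative branch came to 2065 ± 70.6 normalized counts per kilobase in Sykdel/del and 1913 ± 31.6 in Syk+/+, 108% of the Syk+/+ mean, again without overlap. *Pgd* made up 73.4% of this sum in Sykdel/del and 73.0% in Syk+/+, so the sum largely repeats its values. Of the sums over all steps by the principal transcript, only this one and that of glucose uptake did not overlap. Of the non-oxidative branch, which shuffles sugar carbons back to glycolysis, *Tkt* had 3587, 3995 and 3830 normalized counts in Sykdel/del libraries and 3788, 3707 and 3920 in Syk+/+ libraries, and *Taldo1* was at 2239 to 2604 in Sykdel/del and 2095 to 2571 in Syk+/+. Both overlapped.

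With *Eno3* and *Tigar* lower and *Pdha1* and *Pgd* higher, 4 of 37 members had genotypes that did not overlap, a count to be read beside the 10.1% of all 14023 genes for which this held (5.19% lower and 4.94% higher).

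Further genes of carbohydrate metabolism were examined in 4 lists, and none of their 99 tested genes passed by limma, 3 having an unadjusted p under 0.05, nor did any pass by limma-voom. Of 38 other glycolysis, gluconeogenesis and pentose phosphate genes 27 were tested, with a median log2 fold change of 0.07. They ranged from -1.11 to 0.69. The smallest p in that list was that of *Slc2a9*, a urate and hexose transporter, at 112.0, 109.5 and 152.9 in Sykdel/del libraries and 98.2, 76.8 and 75.7 in Syk+/+ libraries (log2 fold change 0.57, standard error 0.18, adjusted p = 0.44 by limma). Its genotypes did not overlap. *Pgam2*, the muscle form of phosphoglycerate mutase, was at 35.9 to 40.7 in Sykdel/del and 29 to 37.8 in Syk+/+. It was looked up after the values were known, as another muscle form.

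Of 29 genes of pyruvate entry and the citric acid cycle 28 were tested, with a median of 0.05 and a range of -0.18 to 0.18, and of 21 genes of glycogen and side branches 20 were tested, with a median of 0.04. In neither list did a gene reach an unadjusted p of 0.05. Of 26 regulators and hypoxia response genes 24 were tested, with a median of 0.03. They ranged from -0.80 (*Ddit4*) to 1.08 (*Vegfa*), and neither of these 2 passed. *Hif1a* was at 363.6 to 470.0 in Sykdel/del and 379.2 to 440.4 in Syk+/+. *P4ha1*, a collagen prolyl hydroxylase known to be induced by hypoxia, had 229.4, 196.1 and 190.4 normalized counts in Sykdel/del libraries and 306.7, 344.7 and 276.8 in Syk+/+ libraries. Its genotypes were well apart, with a log2 fold change of -0.59 (standard error 0.12), but its adjusted p of 0.070 by limma missed the threshold.

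Markers of non-classical monocytes, the patrolling subset low in Ly6C, were lower as well. Of 15 such markers 10 were lower and 0 higher by limma, with a median of -1.32 on the log2 scale. Over all genes tested the share of lower ones was 0.349%. The list was chosen with earlier results of these data known, so its count is a description and no independent test. The count was 8 lower by limma-voom, 0 by limma without trend and 0 with thinned reads (10 with the filter at 10 normalized counts added), while the median stayed between -1.32 and -1.31 in these fits. It was 4 without Sykdel/del replicate 2 and 0 and 1 without Syk+/+ replicates 1 and 2. By size, 5 of the 15 had a larger decrease than *Eno3*, namely *Cd300e* (-2.17), *Pparg* (-1.98), *Fcgr4* (-1.66), *Cd274* (-1.61) and *Treml4* (-1.56). The 5 that did not pass by limma were *Nr4a1* (-0.73), *Pou2f2* (-0.63), *Cebpb* (-0.30), *Cx3cr1* (-0.27) and *Spn* (-0.18). The summed normalized counts of the 15 were 8995 to 11739 in Sykdel/del and 14611 to 19753 in Syk+/+, and none of the markers was at 0. The library with the highest *Eno3*, Syk+/+ replicate 2, was also the highest for 14 of the 15 markers. On the log2 scale *Eno3* minus the mean of the 15 markers was -1.24 ± 0.13 in Sykdel/del and -0.83 ± 0.06 in Syk+/+ (SD, n = 3 each). In RNA of whole samples, fewer cells of a type and less RNA per cell cannot be told apart, and the part of these markers in the *Eno3* result was not tested.

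The 10 classical monocyte markers had a median of 0.16, with none past the threshold and 1 higher at an unadjusted p under 0.05. They summed to 148699 to 171608 in Sykdel/del and 127188 to 142575 in Syk+/+, without overlap. Most of each sum was *Fn1*, at 90684 to 102708 in Sykdel/del and 76828 to 87755 in Syk+/+. Resident macrophage markers had a median of -0.91. Of the 11, 1 passed as lower by limma (*C1qc*, a complement gene, -1.72), and 8 were lower at an unadjusted p under 0.05. They summed to 2011 to 2375 in Sykdel/del and 2731 to 2957 in Syk+/+, without overlap. Their part in the *Eno3* result was not tested either. Of 11 skeletal muscle markers 7 were tested and none passed, with 0 at an unadjusted p under 0.05. The myosin genes *Myh1* and *Myh2* were at 0 in every library, and all 11 summed to 35.4 to 81.1 normalized counts in Sykdel/del and 41.0 to 67.2 in Syk+/+, below *Eno3* itself in every library. All 11 erythroid markers, among them the globins, had values below 0 with a median of -0.77, but 0 passed by limma or limma-voom and 3 were lower at an unadjusted p under 0.05. They summed to 330.4 to 675.7 in Sykdel/del and 407.2 to 1081.6 in Syk+/+, overlapping. Of the B and plasma cell markers 8 were tested and 0 passed by limma or limma-voom, 3 being higher at an unadjusted p under 0.05, with a median of 0.14. *Jchain*, the joining chain of secreted antibodies, had 420.1, 460.1 and 579 normalized counts in Sykdel/del libraries against 359.1, 217 and 183.6 in Syk+/+ libraries, without overlap (log2 fold change 0.99, adjusted p = 0.063 by limma). The list summed to 2023 to 2186 in Sykdel/del and 1647 to 1948 in Syk+/+, while *Ms4a1*, a surface marker of B cells, was at 0 in every library. The 14 neutrophil and granulocyte precursor markers had a median of 0.23, with 0 past the threshold and 1 higher at an unadjusted p under 0.05. They summed to 3195 to 4976 in Sykdel/del and 2853 to 4295 in Syk+/+, highest in replicate 1 of each. The 8 cycling cell markers had a median of 0.07, with 0 past the threshold. Their sums were 29925 to 37903 in Sykdel/del and 31861 to 33773 in Syk+/+. The part of the erythroid, B and plasma cell, granulocyte and cycling lists in the *Eno3* result was not tested.

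**Figure D4:**
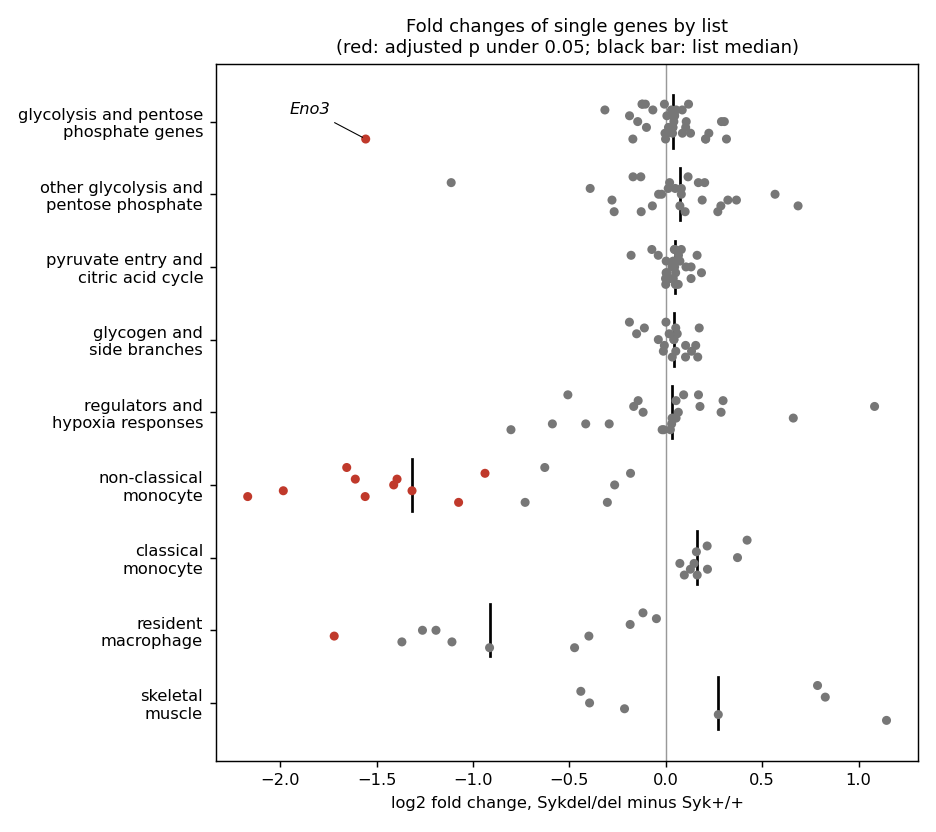
Log2 fold changes, Sykdel/del minus Syk+/+, of the tested genes of 9 lists (points, red where the adjusted p was under 0.05) with each list's median (black bar). The metabolic lists centre between 0.03 and 0.07 with *Eno3* apart at -1.56, within the range of the non-classical monocyte markers, whose median is -1.32.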

How the data were processed

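The authors isolated bone marrow monocytes, made rRNA-depleted, directional libraries, mapped the reads to GRCm38 (mm10 per the labels) and quantified annotated genes in CLC Genomics Workbench. Version, annotation and strand setting were not stated. The deposited log2 values are log2(x + 1). The methods name TPM. Dividing x by 1 step per library gave whole reads for every value (tolerance 0.06 of a read), which shows read counts scaled per library, not per length. A deposited column of the authors' p-values was not used.

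Genes with x of at least 1 in 3 or more libraries, 14023 in all, were fitted in limma 3.58.1 (R 4.3.3; eBayes, variance trend) on log2(x + 1), pseudocount 1, with genotype as the factor. P-values were two-sided and adjusted over these genes after Benjamini and Hochberg (threshold 0.05). Fold changes on this scale understate those of low genes. The fit was also run on simulated counts, in which only genes well above the filter were changed. No outlying library was simulated, so this cannot tell how far calls rest on single libraries. Gene models were those of GENCODE M21. Values per library were given for members past the threshold, with an unadjusted p under 0.05 or without overlap, and for the gene with the most counts of each step with isoenzymes. A few more were added after the values were seen. The members and lists were chosen with earlier results of these data known. Alternatives were other pseudocounts, filters and scalings, limma without trend, limma-voom on recovered reads, a replicate block, thinned reads and leaving out each library. Thinned reads with a filter at 10 were added after the data were seen.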

Additional observations from a re-analysis of the deposited data

How the results depend on the processing

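*Eno3* was the only member past the threshold in the analysis as reported and under every alternative but 2, limma without trend and reads thinned to the shallowest library, where 0 members passed (log2 fold change -1.56 and -1.40, adjusted p 0.25 in both). Thinned reads with a filter at 10 normalized counts called it again (-1.40, adjusted p 0.0074). Without each library in turn its log2 fold change was -1.75 to -1.40 and its adjusted p 0.0025 to 0.043. The number of genes past the threshold over the whole table was 52 as reported (49 lower, 3 higher), 6 without trend (2 lower, 4 higher), 34 by limma-voom (34 lower, 0 higher), 0 with thinned reads, 47 with thinned reads and the filter at 10 (44 lower, 3 higher) and 4 to 92 without each library in turn, namely 92 and 18 when Sykdel/del replicate 1 or 2 was left out and 10, 4 and 34 when Syk+/+ replicate 1, 2 or 3 was. The causes were not tested.

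The replicate numbers did not pair the samples (r = 0.019, 0.041 and -0.027 for equal numbers), and with the replicate block 53 genes passed and *Eno3* had an adjusted p of 0.013. Members near 0 changed sign without passing the test in any setting. Log2 fold changes were *Aldoa* 0.00062, *Tpi1* 0.0036 and *Tkt* 0.0065 with upper-quartile rescaling, *Aldoa* 0.012, *Tpi1* 0.0092 and *Tkt* 0.033 with quantile normalization, and *Hk3* -0.0013, *Pfkp* -0.0022, *Pfkfb2* -0.068, *Aldoa* 0.0088, *Dlat* -0.010 and *Tkt* 0.0081 with thinned reads, with or without the filter at 10. *Eno2* was at 0.19 by limma-voom and at 0.45 with thinned reads. Leaving out each library gave *Aldoa* -0.039 to 0.043, *Aldoc* -0.49 to 0.033, *Dlat* -0.062 to 0.091, *Eno2* -0.61 to 0.34, *G6pdx* -0.0058 to 0.13, *Gapdh* -0.043 to 0.057, *Gpi1* -0.012 to 0.072, *Hk2* -0.016 to 0.084, *Hk3* -0.011 to 0.088, *Pdk1* -0.28 to 0.031, *Pdk2* -0.020 to 0.36, *Pfkfb2* -0.10 to 0.18, *Pfkfb4* -0.036 to 0.12, *Pfkp* -0.021 to 0.053, *Pkm* -0.0023 to 0.081, *Slc16a3* -0.14 to 0.030, *Tkt* -0.038 to 0.040 and *Tpi1* -0.035 to 0.030. The *Pfkm* to *Pfkl* ratio differed by 0.24 with thinned reads. Depth limits *Fbp1*, *Eno2* and *Aldoc*, each under 15 reads in every library.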
